A study of Mus musculus with 4 samples.

Results

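The ERBB receptors and the EGF-type ligands that bind them were followed through 4 mouse mammary tumours, from the cells that carry the receptors to those that make the ligands. The genes were taken by symbol from the mouse features of the count tables, 10 of 31053: the receptors Erbb2, Erbb3, Erbb4 and Egfr, and the ligands Areg, Ereg, Hbegf, Btc, Nrg1 and Tgfa. Each tumour grew from the HER2+ mammary tumour line H605, injected into the mammary pad of an FVB/NJ mouse 6 to 8 weeks old, and was taken on day 14. Hosts were wild type (WT, 2 tumours) or lacked interleukin 1 alpha (Il1a-/-, 2 tumours), so the deletion is in the host's cells and the transplanted cells are the same line in both groups. RNA of single cells was counted as UMIs, molecular tags of which each stands for 1 captured transcript. The labels give neither the species nor the promoter of the HER2 gene in H605, and all tumours come from this 1 line.

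ERBB receptors are tyrosine kinases that signal as pairs. Egfr binds Areg, Ereg, Hbegf, Btc and Tgfa; Erbb3 and Erbb4 bind the neuregulins such as Nrg1; Erbb2, the gene for HER2, has no known ligand of its own and acts as the partner of the others. The ligands are made as membrane proteins and are cut free by ADAM proteases, so a cell can act on itself or on its neighbours.

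The libraries held 6704859 to 28999819 mouse UMIs and 3130 to 3878 called cells, with a median of 1349 to 4164 UMIs per cell. The 2 Il1a-/- libraries were the shallowest, with 6704859 and 15297495 UMIs. At most 5 cell barcodes were shared by any pair of libraries. Il1a itself stood at 3.29 and 4.37 CPM (UMIs of a gene per 1000000 UMIs of the cells summed) in the WT tumours, over all their cells, and at 0.18 and 0 CPM in the Il1a-/- tumours. Classes of cells were built without these 10 genes and named from markers, with the ending "-like". The tumour epithelial-like class carried 10 of its 12 epithelial markers, among them Epcam, Krt8 and Krt18. It had 240 and 141 cells in the WT libraries, 23 in Il1a-/- replicate 1 and none in Il1a-/- replicate 2, so what is said of receptors on tumour cells rests mainly on the WT tumours. A further cluster of 338 cells, here unnamed cluster 1, carried 8 of the 12 epithelial markers. Its median UMI count was 0.32 times that of its libraries, and no epithelial marker was among its 10 leading genes. For these reasons together it stayed without a name. Unnamed cluster 4, 1393 cells with T cell markers such as Cd3e and Trac, made up 9.14 to 10.2% of each library. It stayed unnamed because Ccr7, on the conventional dendritic list, was among its leading genes. The T/NK-like class below leaves it out.

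Erbb2 RNA was concentrated in the tumour cells. In tumour epithelial-like cells WT replicate 1 had 201 CPM (966 UMIs, 95% Poisson interval 188 to 214), WT replicate 2 had 137 CPM (590 UMIs, 127 to 149) and Il1a-/- replicate 1 had 73.4 CPM (12 UMIs in 23 cells, 37.9 to 128). These intervals cover counting error only. Both WT values lay above the single Il1a-/- value. Unnamed cluster 1 had 187 and 100 CPM in the WT libraries. Fibroblast-like cells held 10.1 to 14.5 CPM in all 4 libraries, below the lowest tumour library, and T/NK-like cells (T and natural killer cells together) at most 5 UMIs per library. RNA free of cells held Erbb2 at 36.8 and 9.81 CPM in the WT libraries and at 2.69 and 3.27 CPM in the Il1a-/- libraries. In Il1a-/- replicate 2, where no tumour epithelial-like cell was called, fibroblast-like cells still held 20 Erbb2 UMIs. Of all Erbb2 UMIs in called cells, 89.0% lay in tumour epithelial-like cells. The mouse gene lies at chr11:98412470-98437716 (mm10, plus strand). Whether the tumour cells' Erbb2 RNA comes from this locus was not tested, since the labels do not describe the HER2 gene of H605.

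Erbb3, the receptor that binds neuregulin and relies on a partner's kinase, stood at 129 and 68.9 CPM in the tumour epithelial-like cells of the WT tumours and at 49.0 CPM (8 UMIs) in the 23 cells of Il1a-/- replicate 1. The same cells carried both receptors: a UMI of Erbb2 and one of Erbb3 were found together in 155 of 240 tumour epithelial-like cells of WT replicate 1 (64.6%, exact 95% interval 58.2 to 70.6%) and in 77 of 141 of WT replicate 2 (54.6%, 46.0 to 63.0%). At least 1 of the 4 receptors was detected in 95.4% and 87.2% of these cells. At a fixed 5000 UMIs per cell the share with Erbb3 was 46.2% and 30.9%, against 73.3% and 63.8% at full depth. In T/NK-like cells at full depth the share with Erbb3 was 0.37 to 1.13%.

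Erbb4, the second neuregulin receptor, gave 0 UMIs in every called cell. That allows at most 0.624 and 0.699 CPM in tumour epithelial-like cells of the WT libraries (3 counts of the class total) and at most 18.4 CPM in those of Il1a-/- replicate 1. Nrg1 RNA was present in host cells of all 4 tumours, as given below, with Erbb3 as the detected neuregulin receptor.

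Egfr was mostly a fibroblast gene in these tumours. Its level in fibroblast-like cells was 282 and 178 CPM for WT replicates 1 and 2, and 389 and 301 CPM for Il1a-/- replicates 1 and 2. Both Il1a-/- libraries lay above both WT libraries, but the difference did not pass the test (below). Between 58.7 and 74.9% of fibroblast-like cells carried an Egfr UMI. Of 12752 to 14407 detected genes, 336 to 759 had more UMIs in that class. Tumour epithelial-like cells had 24.8, 15.4 and 24.5 CPM (the last from 4 UMIs), so no tumour library reached the lowest fibroblast library. The fibroblast-like class joined cluster 0, with Pi16 among its leading genes, and cluster 14, led by Cilp, in unequal parts. Cluster 0 had 297 and 61 cells in the WT libraries and 269 and 58 in the Il1a-/- libraries, and cluster 14 had 61 and 159 against 17 and 201, so cluster 0 was the larger one in replicates 1 and cluster 14 in replicates 2. Egfr stood at 316 and 307 CPM (WT) and 405 and 333 CPM (Il1a-/-) in cluster 0, and at 112 and 136 CPM (WT) and 179 (11 UMIs) and 296 CPM (Il1a-/-) in cluster 14. Fibroblast-like cells held 88.7% of all Egfr UMIs and tumour epithelial-like cells 8.1%. In free RNA Egfr had 14.1 to 24.5 CPM, and T/NK-like cells held at most 1 UMI per library. The gene lies at chr11:16752203-16918158 (plus strand).

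Plasmacytoid dendritic-like cells, the class with the interferon-producing dendritic cells' markers Siglech and Ccr9, carried both Egfr and Erbb3 at a low level. Egfr stood at 20.3 to 45.6 CPM over the 4 libraries (28, 13, 6 and 19 UMIs) and Erbb3 at 23.4 to 48.0 CPM (28, 15, 6 and 20 UMIs). Conventional dendritic-like cells had no Egfr UMI in any library. The 52 plasmacytoid dendritic-like cells with an Egfr UMI held the 10 fibroblast markers at 6.76 CPM in sum, against 57.9 CPM in the 407 without one and 61933 CPM in fibroblast-like cells. Their sum of the 12 epithelial markers was 345 CPM, against 322 CPM in cells without Egfr and 9481 CPM in tumour epithelial-like cells. In the 60 cells with an Erbb3 UMI that sum was 371 CPM, against 316 CPM in the 399 without one. An epithelial marker UMI was found in 83.3% and 68.9% of them, at a median of 6525.5 and 5085 UMIs per cell. Free RNA held Egfr at 14.1 to 24.5 CPM and Erbb3 at 2.45 to 17.6 CPM over the libraries. The part of free RNA in the values of this class was not tested. Plasmacytoid dendritic-like cells also held Nrg2, a neuregulin, at 19.8 to 33.6 CPM.

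**Figure D1:**
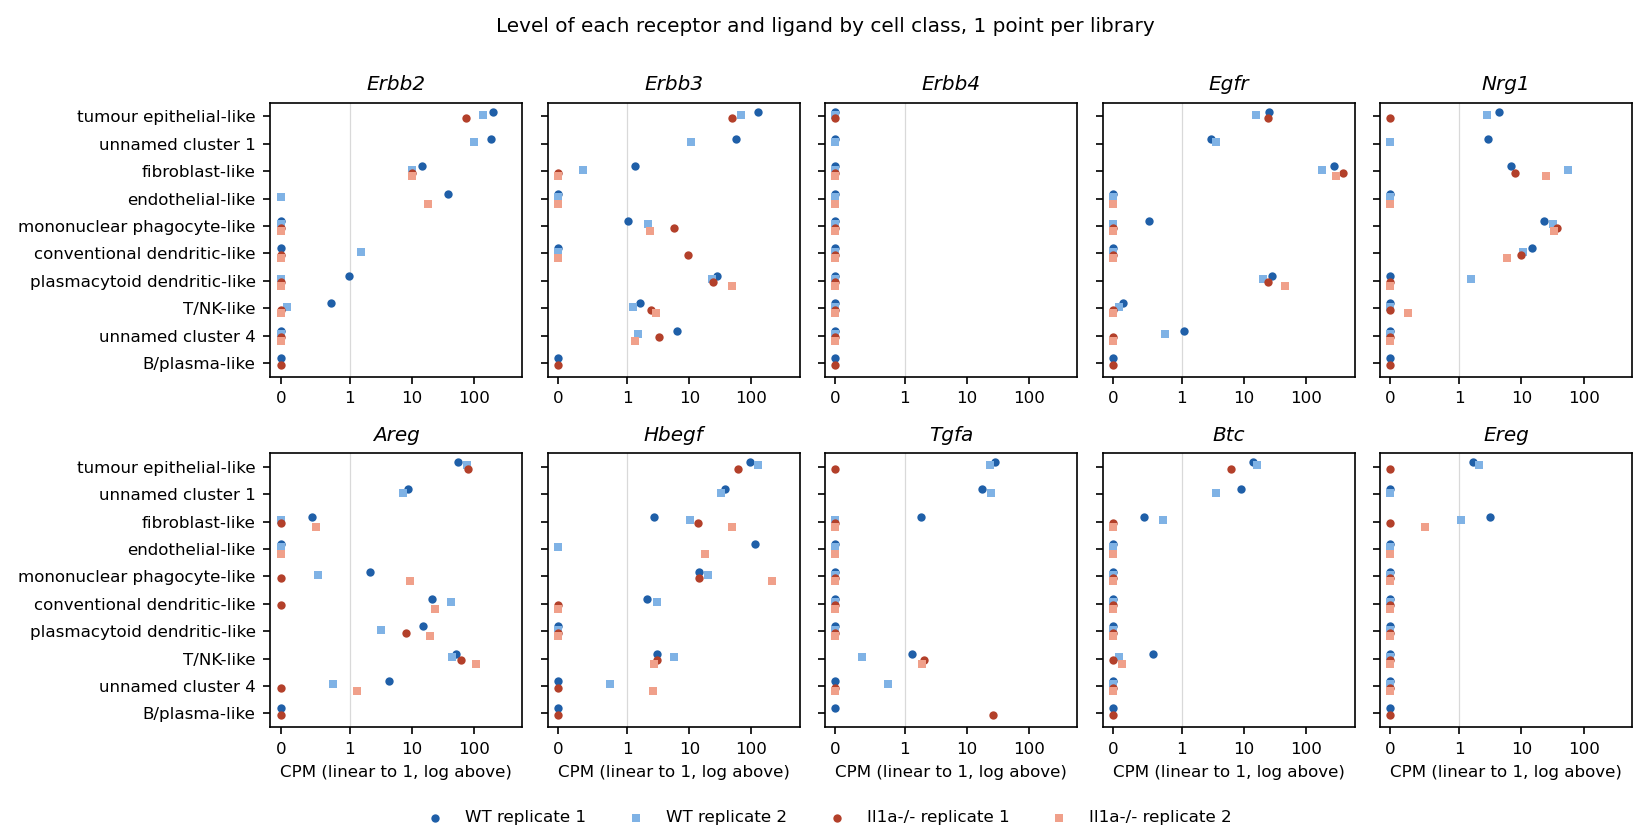
Level of each gene (CPM, linear to 1 and logarithmic above) in 10 classes of cells or clusters. Each point is 1 library with at least 20 cells of that class, blue for WT and red for Il1a-/-; by mean over libraries tumour epithelial-like cells are highest for Erbb3 and Btc, fibroblast-like cells for Egfr and mononuclear phagocyte-like cells for Nrg1, whose highest single library is fibroblast-like (WT replicate 2, 55.8 CPM), and Erbb4 is at 0 throughout.

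Among the ligands, Hbegf, Areg, Tgfa and Btc were all found in the tumour cells themselves. Hbegf stood at 94.0 and 129 CPM in tumour epithelial-like cells of the WT libraries and at 61.2 CPM in Il1a-/- replicate 1 (10 UMIs). It was detected in 51.3% and 63.1% of the WT tumour epithelial-like cells. Areg stood at 54.3 and 77.1 CPM in the WT libraries. Its 79.6 CPM in Il1a-/- replicate 1 came from a single cell with 13 UMIs. In WT replicate 1 the 3 cells richest in Areg held 51.7% of its tumour UMIs, so the Poisson intervals are too narrow for this gene. Tgfa stood at 28.5 and 24.0 CPM in the WT libraries and had 0 UMIs in the 23 cells of Il1a-/- replicate 1, which allows up to 18.4 CPM. Btc, which binds Egfr and Erbb4, had 13.7 and 16.1 CPM in the WT libraries and 1 UMI in Il1a-/- replicate 1. A receptor and a ligand of the family were detected together in 68.8% and 74.5% of tumour epithelial-like cells of the WT libraries. Ereg was close to absent, with 17 UMIs in tumour epithelial-like cells and 11 in fibroblast-like cells, 28 in all.

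Host cells held most of the UMIs of Areg and of Nrg1 in all 4 tumours. Of the Areg UMIs, T/NK-like cells held 53.8% and 55.9% in the WT libraries and 92.8% and 96.1% in the Il1a-/- libraries, where few or no tumour epithelial-like cells were captured. These shares move with the number of cells of each class. Nrg1 stood at 23.4, 32.0, 37.5 and 33.2 CPM in mononuclear phagocyte-like cells (monocytes and macrophages) of WT replicates 1 and 2 and Il1a-/- replicates 1 and 2. Both Il1a-/- values lay above both WT values in this class, but the difference did not pass the test (below). In fibroblast-like cells Nrg1 stood at 6.78 and 55.8 CPM in the WT libraries and at 7.94 and 24.7 CPM in the Il1a-/- libraries, so replicate 2 was above replicate 1 in both genotypes. The part of the 2 fibroblast clusters, which differ in number between replicates, was not tested. In cluster 14 Nrg1 stood at 24.5 and 72.4 CPM (WT) and at 81.6 (5 UMIs) and 25.7 CPM (Il1a-/-), and in cluster 0 at 2.44 to 18.7 CPM, so in cluster 14 the order of the replicates was not the same in both genotypes. Tumour epithelial-like cells of the WT libraries had 4.37 and 2.79 CPM of Nrg1.

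Within the phagocytes, Nrg1 was highest in the monocyte gate, cells with a Ly6c2 UMI and fewer than 2 UMIs of the C1q genes and of Arg1, at 90.2 and 88.6 CPM in the WT libraries and 51.1 and 102 CPM in the Il1a-/- libraries. Cells with at least 2 UMIs of C1q, a macrophage marker, had 13.7 and 22.4 CPM in the WT libraries, 0 in Il1a-/- replicate 1 and 22.4 in Il1a-/- replicate 2. In each library the monocyte gate lay above the C1q gate. No test was made between gates, since a gate on marker UMIs depends on depth.

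**Figure D2:**
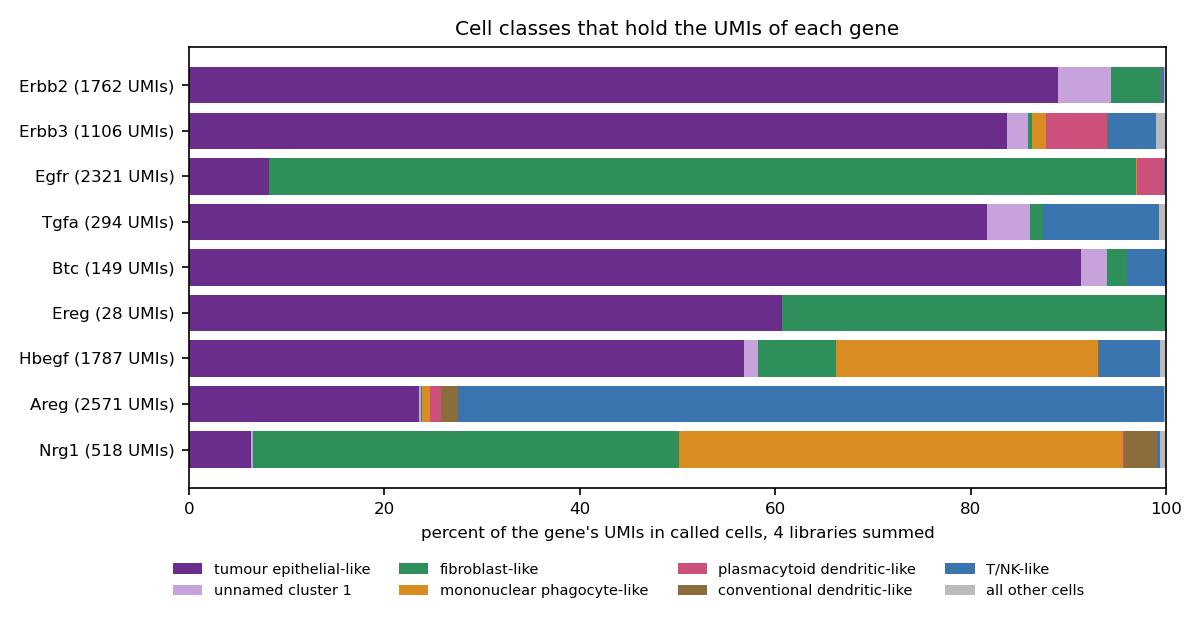
Share of each gene's UMIs (percent, 4 libraries summed) that lies in each class of called cells. Tumour epithelial-like cells hold 89.0% for Erbb2, fibroblast-like cells 88.7% for Egfr and T/NK-like cells 72.2% for Areg; Erbb4, with no UMI, is left out.

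The highest class was tumour epithelial-like for 7 of the 10 genes (Erbb2, Erbb3, Areg, Ereg, Hbegf, Btc and Tgfa) among named classes by mean CPM, fibroblast-like for Egfr and mononuclear phagocyte-like for Nrg1. For Areg the neighbours in that order, tumour epithelial-like and T/NK-like, overlapped between libraries (means 70.3 ± 13.9 CPM, SD, n = 3, and 66.0 ± 28.9 CPM, n = 4). For Hbegf, tumour epithelial-like cells and phagocytes overlapped as well (94.7 ± 33.9 CPM, SD, n = 3, and 65.3 ± 97.9 CPM, n = 4). For Nrg1, phagocytes and fibroblast-like cells overlapped too (31.5 ± 5.91 and 23.8 ± 22.8 CPM, SD, n = 4 each). Without WT replicate 2 the count of 7 fell to 4, with Areg then highest in T/NK-like cells and Hbegf in phagocytes.

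Areg in lymphocytes sat in few cells. It stood at 50.3 and 44.4 CPM in T/NK-like cells of the WT libraries and at 61.2 and 108 CPM in those of the Il1a-/- libraries, and both Il1a-/- values lay above both WT values. Only 1.24 to 4.92% of T/NK-like cells carried an Areg UMI. Unnamed cluster 4, which has T cell markers but lies outside this class and its gates, held 6 Areg UMIs in all. A single cell held up to 83 UMIs, and the 3 richest cells held 20.7 to 49.5% of the UMIs of a library. Most Areg UMIs lay in a cluster led by Il13, Il1rl1 and Il4, with 156 to 855 CPM of Areg, and in a cluster led by Foxp3, with 172 to 519 CPM. In contrast, the cluster led by Gzmc and Xcl1 held 1 Areg UMI in 1291 cells.

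Marker gates on the T/NK-like cells gave the same division. In type 2 cells (a UMI of Il4, Il5 or Il13) Areg stood at 191 and 207 CPM in the WT libraries and at 1652 and 1106 CPM in the Il1a-/- libraries. Neither Il1a-/- value overlapped the WT values. The share of type 2 cells with an Areg UMI was 22 of 152 and 12 of 141 in the WT libraries and 9 of 42 and 22 of 93 in the Il1a-/- libraries. In regulatory cells (Foxp3) Areg stood at 166 and 92.5 CPM in the WT libraries, 49.4 CPM in Il1a-/- replicate 1 and 681 CPM in Il1a-/- replicate 2, so only 1 Il1a-/- library was high. The 49.4 CPM rests on few UMIs, from 39 cells with a median of 1553 UMIs. Natural killer cells held at most 5 Areg UMIs per library.

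The type 2 gate was tested across all its genes after these values had been seen. Areg was higher in Il1a-/- by 2.77 on the log2 scale (SE 0.26, adjusted p = 6.92e-04, edgeR), where 2.19% of 5618 genes were called. Without WT replicate 2 the adjusted p was 0.63 at a log2 fold change of 2.84. The gate rests on 42 to 152 cells per library, with a median of 1464.5 and 2953 UMIs in the Il1a-/- libraries against 3768.5 and 5755 in the WT libraries, and the 3 richest cells held 45.5 to 71.4% of its Areg UMIs. The part of depth and of these few cells in the difference was not tested. In gamma-delta cells (Trdc) Areg was also called, at 2.11 (SE 0.55, adjusted p = 0.0183, edgeR, 9.71% of genes called), from 2 to 18 UMIs per library. It was lost without WT replicate 1 (adjusted p = 0.32), WT replicate 2 (0.35) or Il1a-/- replicate 2 (0.79), and with DESeq2 (0.30). In the regulatory, CD4, CD8 and remaining gates Areg was not called, with adjusted p of 0.32, 0.90, 0.72 and 0.35 where 0.352, 1.73, 0.386 and 5.31% of genes were called. In the regulatory gate it was called without WT replicate 1 (adjusted p = 2.60e-05), without WT replicate 2 (0.0467) and with no low-count filter (2.72e-05), while without Il1a-/- replicate 2 its log2 fold change turned from 1.78 to -1.48. In natural killer cells it did not pass the low-count filter.

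The start of Areg is shown because this gene was called by genotype in the type 2 gate, which was tested after its values had been seen. Of the 10 genes only Areg passed the low-count filter in any gate tested, so it was not compared with the others there. The sequences of the mouse genes Erbb2 and Egfr, the receptors of tumour cells and of fibroblasts, stand beside it for comparison. The labels do not give the promoter of the HER2 gene in H605. The Erbb2 window may thus not be the one that drives the Erbb2 RNA of the tumour cells. Each line gives the 250 bases before the start in RefSeq (GRCm38.p6), 5' to 3' on the gene's strand, at chr5:91139349-91139598, chr11:98412234-98412483 and chr11:16751953-16752202, all plus strand.
Areg: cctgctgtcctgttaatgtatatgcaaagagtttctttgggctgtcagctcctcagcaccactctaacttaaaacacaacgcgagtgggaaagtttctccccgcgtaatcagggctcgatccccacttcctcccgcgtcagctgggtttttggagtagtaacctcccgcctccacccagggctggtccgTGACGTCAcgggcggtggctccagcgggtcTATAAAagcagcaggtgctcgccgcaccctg
Erbb2: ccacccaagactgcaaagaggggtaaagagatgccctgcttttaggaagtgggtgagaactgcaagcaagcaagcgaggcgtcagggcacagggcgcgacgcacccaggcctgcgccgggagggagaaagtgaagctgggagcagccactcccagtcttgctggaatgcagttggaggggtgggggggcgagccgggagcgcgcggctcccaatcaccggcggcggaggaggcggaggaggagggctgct
Egfr: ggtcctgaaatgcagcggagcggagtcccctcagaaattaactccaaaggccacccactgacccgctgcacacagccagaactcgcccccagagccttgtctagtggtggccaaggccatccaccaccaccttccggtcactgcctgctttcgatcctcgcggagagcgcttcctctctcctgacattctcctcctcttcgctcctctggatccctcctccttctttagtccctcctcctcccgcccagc
Capitals mark a cAMP response element, TGACGTCA, 61 bases before the start of Areg, and a TATA box, TATAAA, 31 bases before it. Searched on both strands, the first was found in 1.55% and the second in 12.4% of 32851 promoters of this length. Neither motif was found in the windows of Erbb2 and Egfr, which have 66.0% and 60.8% G and C, against 57.2% for Areg and a median of 52.4%. An AP-1 site, TGANTCA, was in none of the 3 and in 6.75% of all promoters. Promoters were matched for 6 of the 10 genes.

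Hbegf in phagocytes differed between the Il1a-/- tumours. It stood at 14.6 and 20.1 CPM in mononuclear phagocyte-like cells of the WT libraries, at 14.4 CPM in Il1a-/- replicate 1 and at 212 CPM in Il1a-/- replicate 2. Only the last library was high: 25.8% of its phagocytes carried an Hbegf UMI, against 2.42 to 4.10% in the other 3, and the 3 richest cells held 13.0% of the UMIs. The rise lay in the gates with Arg1 (348 CPM) and C1q (221 CPM) and less in the monocyte gate (36.9 CPM). WT replicate 1 held 23.3 (1 UMI), 8.84 and 16.9 CPM in these gates, WT replicate 2 held 30.3, 22.4 and 12.3 CPM, and Il1a-/- replicate 1 held 33.1 (1 UMI), 15.6 (2 UMIs) and 0 CPM. The class differed in make-up between the Il1a-/- libraries: cluster 7, with Chil3, C1qa and Arg1 among its leading genes, held 49 of 165 phagocytes in replicate 1 and 309 of 411 in replicate 2. Within cluster 7 Hbegf stood at 7.54 and 26.2 CPM in the WT libraries, 7.91 CPM (1 UMI) in Il1a-/- replicate 1 and 258 CPM in Il1a-/- replicate 2. Fibroblast-like cells had 2.71 and 10.1 CPM in the WT libraries, 13.6 CPM in Il1a-/- replicate 1 and 49.0 CPM in Il1a-/- replicate 2, again highest in the same library, where 1 cell held 48 of the 97 UMIs and the 3 richest cells 74.2%. Free RNA of that library held Hbegf at 32.7 CPM, against 2.69 to 12.4 CPM in the others, and its T/NK-like cells carried Hbegf in 0.94%. The part of free RNA in the fibroblast values was not tested.

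**Figure D3:**
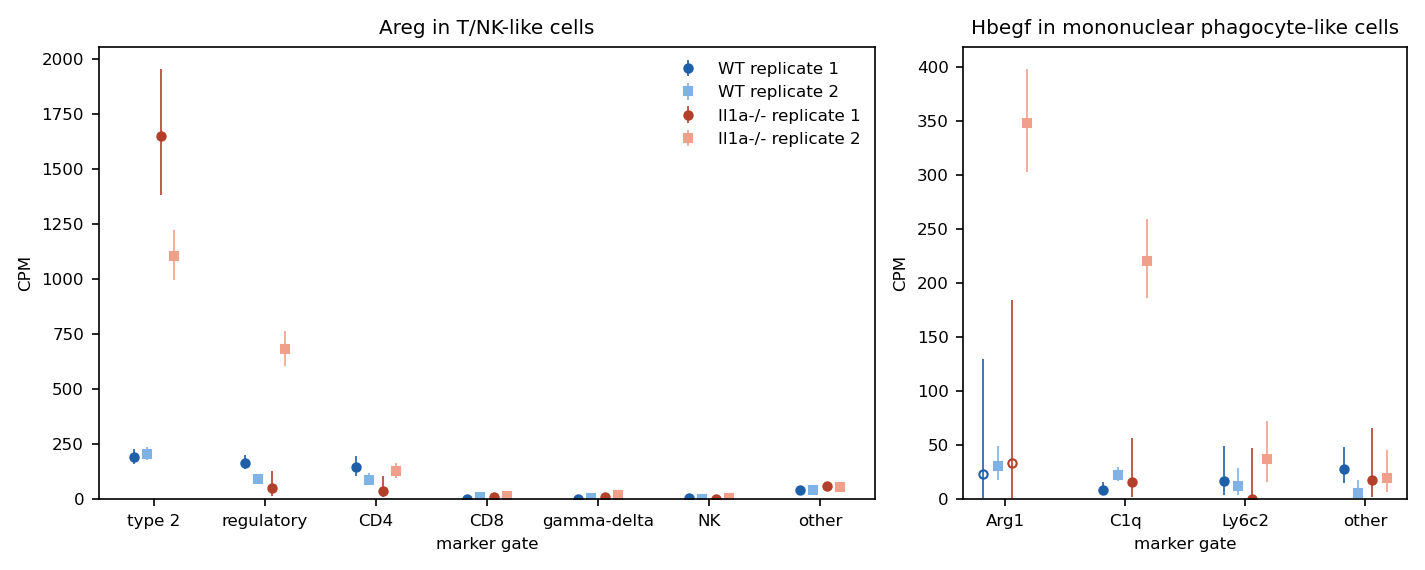
Areg in 7 gates of T/NK-like cells and Hbegf in 4 gates of mononuclear phagocyte-like cells, in CPM. Points are libraries with 95% Poisson intervals, open where fewer than 20 cells lie in the gate; Areg of the type 2 gate is at 1652 and 1106 CPM in the Il1a-/- libraries, and Hbegf is high in Il1a-/- replicate 2 alone.

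The genotypes were compared on counts summed per library, 2 against 2, with edgeR's quasi-likelihood test over all genes. Each library is 1 tumour. The p-values set the difference between genotypes against the spread of libraries within a genotype, estimated with help from all genes. The tumours came as 2 pairs from different days, and the labels do not tie a day to a replicate number. In T/NK-like cells 4 of the 10 genes passed the low-count filter and 0 were called, against 4.8% of 10936 genes (2 of the 4 had an unadjusted p under 0.05, and DESeq2 called 1). Areg came closest, at 0.90 on the log2 scale (SE 0.26, adjusted p = 0.089). It was called in 5 of 11 alternatives, among them DESeq2 (adjusted p = 0.034) and the fit without Il1a-/- replicate 1, with the rest in the last section. Without Il1a-/- replicate 2 its value was 0.39. Between the genotypes the gates of this class differed in number: CD8 cells were 56 and 150 in the WT libraries and 824 and 746 in the Il1a-/- libraries, and type 2 cells 152 and 141 against 42 and 93. Their part in the class value was not tested. Erbb3, at 1.24 to 2.96 CPM, and Tgfa, at 0.38 to 2.08 CPM, had adjusted p of 0.20 and 0.22, and Hbegf 0.39.

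In mononuclear phagocyte-like cells 2 of the 10 genes were tested and 0 called, against 0.179% of 8946 genes (1 of the 2 had an unadjusted p under 0.05, and DESeq2 called 0). The log2 fold change was 2.95 for Hbegf (SE 0.77, adjusted p = 0.15), which became -0.36 without Il1a-/- replicate 2. Nrg1 had 0.34 (SE 0.28, adjusted p = 0.61). In fibroblast-like cells 4 were tested and 0 called, where 0% of 10001 genes were called, 482 (1 of the 4 among them) had an unadjusted p under 0.05 and DESeq2 called 8. Egfr had a log2 fold change of 0.61 (SE 0.33), Hbegf 2.34 (SE 0.78) and Nrg1 -0.82 (SE 0.98), all with adjusted p above 0.86. Leaving out WT replicate 2 turned Nrg1 to 1.40, and leaving out WT replicate 1 turned Erbb2 from -0.24 to 0.0105.

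In tumour epithelial-like cells the test could use the 2 WT libraries and Il1a-/- replicate 1 with its 23 cells, since Il1a-/- replicate 2 had no such cell. The lone Il1a-/- library is assumed to vary like the WT libraries. Of the 10 genes 8 were tested and 0 called, where 0% of 11242 genes were called, 1057 (2 of the 8 among them, Erbb2 and Tgfa) had an unadjusted p under 0.05 and DESeq2 called 10. The log2 fold change was -1.17 for Erbb2 (SE 0.41, adjusted p = 0.52), Erbb3 -0.98 (SE 0.62), Hbegf -0.83 (SE 0.41), Btc -1.24 (SE 0.77), Areg 0.31 (SE 0.42) and Egfr 0.32 (SE 0.67), while the median of all genes was -0.25. Tgfa and Nrg1 had 0 UMIs in the Il1a-/- library, so no fold is given; Tgfa had an unadjusted p of 0.0085 and an adjusted p of 0.52, Nrg1 an adjusted p of 0.69 (edgeR).

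Over all called cells, which sums every class, 8 of the 10 genes were tested and 2 were called, both lower in Il1a-/-, against 3.26% of 14041 genes called in either direction and 1.83% called lower. On the log2 scale Btc stood at -4.80 (SE 0.58, adjusted p = 0.0452) and Erbb2 at -3.90 (SE 0.58, adjusted p = 0.0490). Tgfa and Erbb3 had -2.26 and -2.48, with adjusted p of 0.056 and 0.068. Egfr had 0.85 and Areg 0.74, with adjusted p of 0.14 and 0.15. Tumour epithelial-like cells made up 6.20% and 3.64% of called cells in WT and 0.73% and 0% in Il1a-/-. In such a sum, fewer tumour cells and less RNA per cell cannot be told apart. Without tumour epithelial-like cells and unnamed cluster 1, an alternative added after seeing the data, Btc was not tested. Of the genes tested there 0 were called, and Erbb2 had -0.38. Few genes of all were called in that sum (count in the last section). Both calls were also lost when any 1 library was left out, with adjusted p of 0.067 to 0.119 for Btc and Erbb2, and with cells of at least 1000 UMIs (0.0537 and 0.0585).

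**Figure D4:**
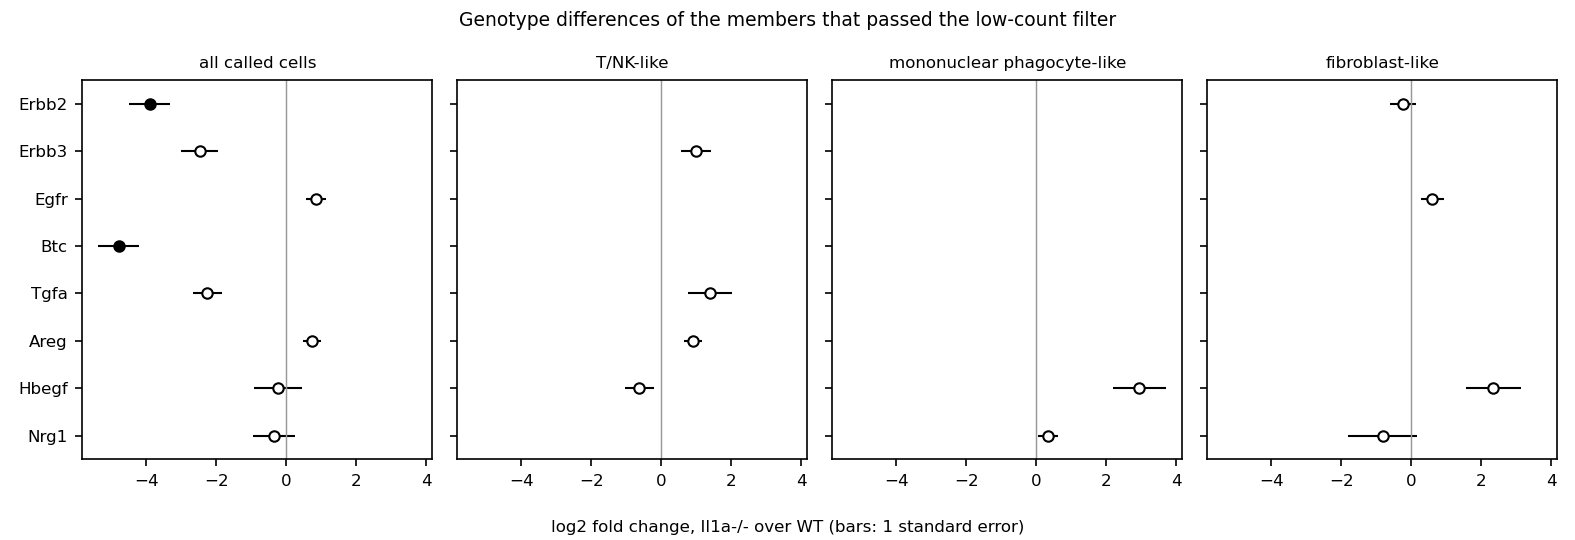
Log2 fold change of each gene that passed the low-count filter, Il1a-/- over WT, with 1 standard error, in 4 sums of cells. Filled points (Erbb2 and Btc over all called cells) had an adjusted p under 0.05 in edgeR's quasi-likelihood test; open points did not.

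Around the receptors, lists of pathway genes were counted in each class. The proteases that free the ligands and their rhomboid partners (Adam10, Adam17, Rhbdf1, Rhbdf2) were tested in 3 of 4 in T/NK-like cells, and none was called in any class. Of the 14 feedback inhibitors, which restrain ERBB and MAP kinase signals, 13 were tested in T/NK-like cells and 3 were called, against 4.8% of all genes tested there, all higher in Il1a-/-: Dusp5, a MAP kinase phosphatase (1.25, SE 0.23, adjusted p = 0.0302), Errfi1, which binds and inhibits the ERBB kinases (0.94, SE 0.16, adjusted p = 0.0234), and Cblb, a ubiquitin ligase (0.94, SE 0.21, adjusted p = 0.0487). The list's median log2 fold change was 0.26, that of all genes -0.02. Of the 9 genes that growth factors induce, 7 were tested there: Egr1 was higher (0.90, adjusted p = 0.0344) and Myc lower (-1.76, adjusted p = 0.00962). In the type 2 gate 2 of 6 feedback inhibitors tested, Errfi1 (2.01) and Dusp5 (1.34), and 2 of 5 induced genes, Phlda1 (2.08) and Egr1 (1.73), were called higher, against 2.19% of all genes called. Dusp5 was also called higher in the CD4 (1.44), CD8 (1.55), natural killer (1.33), gamma-delta (1.44) and remaining (1.38) gates. There 1.73%, 0.386%, 866 of 7713, 9.71% and 5.31% of genes were called. Egr1 was also called in the CD4 (1.88) and remaining (0.87) gates. Errfi1, called in the type 2 gate alone, had 1.79, 1.70 and 1.79 in the CD4, CD8 and regulatory gates. In phagocytes Dusp5 was called higher (2.26, SE 0.26, adjusted p = 0.0250), 1 of 9 feedback inhibitors tested, against 0.179% of all genes. Over all called cells, where 3.26% of genes were called, 3 of 14 feedback inhibitors were called, Dusp5 (1.77) and Cblb (1.29) higher and Dusp6, another MAP kinase phosphatase, lower (-1.19, adjusted p = 0.0483), and 1 of 9 induced genes, Ccnd1, the gene for cyclin D1, lower (-3.42, adjusted p = 0.04996). In that sum fewer tumour cells and less RNA per cell cannot be told apart. Within T/NK-like, phagocyte, fibroblast-like and tumour epithelial-like cells neither Dusp6 nor Ccnd1 was called. Dusp6 had 0.50, -0.53, -0.03 and -0.05 there, and Ccnd1 -0.24, -1.28, -0.06 and -0.66. No gene of any list was called in fibroblast-like or tumour epithelial-like cells. T/NK-like cells held 2 Egfr, 6 Erbb2 and 55 Erbb3 UMIs over the 4 libraries, the last at 1.24 to 2.96 CPM. These genes also answer other receptors, and the part of any receptor in the differences was not tested.

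Of the other EGF-type ligands, Nrg2 was the only one with a marked level in tumour epithelial-like cells, at 28.9 and 16.3 CPM in the WT libraries and 49.0 CPM (8 UMIs) in Il1a-/- replicate 1. Nrg3 had no UMI in tumour epithelial-like, fibroblast-like, phagocyte, plasmacytoid dendritic-like or T/NK-like cells. Among the neighbours of Erbb2 on chromosome 11, Grb7, an adaptor that binds ERBB receptors, stood at 12.8 CPM or more in tumour epithelial-like cells of both WT libraries, and 0 of the 4 tested in these cells were called.

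Genes whose levels ran most like each member were sought over 38 sums of a class in a library, which share libraries and depth. Pearson's r of log2(CPM + 1) was highest for Erbb2 with Foxc1 (0.957), for Egfr with Matn2 (0.958), for Btc with Cnmd (0.980) and for Erbb3 with Nrg2 (0.848). For Areg it was Pxmp2 (0.874), for Tgfa Cryba4 (0.873), and for Hbegf and Nrg1 it was Rai14 and Rnf150 (0.853 each). In all, 13575 genes were compared for each, and the values are given as a description.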

How the data were processed

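The deposited values are raw UMI counts per gene and barcode, made by the authors with Cell Ranger 3.1.0 and the mm10 build among others, per the submitters' processing notes; per the file headers the features join GRCh38 and mm10. Mouse features were used. Barcodes with at least 500 UMIs, 250 genes and at most 20% mitochondrial UMIs were kept, and the top 0.8% per 1000 cells by Scrublet score were removed. Cells were clustered without the 10 genes (scanpy 1.11.5; 2000 variable genes, 30 components, 15 neighbours, Leiden resolution 1). A cluster was named when at least 3 markers of a class were detected and its score was at least 2 times the next class's. No other class could lead its top 10 genes. A cluster with a median UMI count under 33.3% of that of its libraries also needed a marker of its class among these 10 genes. This naming rule was set after the clusters were seen. The members, lists and tests were chosen with earlier results of these data known.

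CPM is UMIs of a gene per 1000000 mouse UMIs of the class; intervals are exact Poisson (95%) for levels and Clopper-Pearson for shares. UMI counts at transcript ends were not scaled by length. Mean levels use libraries with at least 20 cells of a class. Library sums were tested with edgeR 4.0.16 (filterByExpr, TMM, quasi-likelihood, Benjamini-Hochberg, 0.05); alternatives were DESeq2 1.42.0, no filter, no TMM, at least 1000 UMIs, a per-cell marker gate, a replicate block and leaving out each library. T/NK gates were assigned in the order type 2, regulatory, gamma-delta, natural killer, CD8, CD4. The fit was tested on simulated counts with 200 genes raised by known amounts, in equal numbers by 2-fold and by a larger fold. Every simulated gene had the same spread between libraries (dispersion 0.05). In T/NK-like, phagocyte and fibroblast-like sums and over all called cells, 35, 20, 14 and 29 of the 2-fold changes were called. Of the larger changes 99, 97, 92 and 97 were called, and 5, 13, 3 and 7 unchanged genes were called falsely. Many 2-fold changes were thus missed, and a gene that was not called may still differ by that much. Genes with a wider spread were not simulated, such as Hbegf in phagocytes (14.4 and 212 CPM in the Il1a-/- libraries). For such genes larger changes may be missed as well. All 10 genes are named; pathway genes are named where called or among the largest changes of their list. Positions are GENCODE vM21, matched for 30934 of 31053 identifiers.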

Additional observations from a re-analysis of the deposited data

Results flagged for a closer look

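The human rows of the joint reference were not used in the comparisons. The ERBB2 row held 4 UMIs in called cells, all in tumour epithelial-like cells of the WT libraries (3 and 1 UMIs), and above the 3 counts set as the limit of a count of 0, and no other human row of the 10 genes held any. All human rows together held 509 to 1514 UMIs per library in total, up to 0.00759% of the mouse UMIs.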

How the results depend on the processing

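Counts of the 10 genes called by genotype moved as follows. In T/NK-like cells the count rose from 0 to 1 with DESeq2, with cells of at least 1000 UMIs, with no low-count filter and with the replicate block, and was 0 to 1 without single libraries. In phagocytes it rose from 0 to 1 with no filter and with the block, and was 0 to 1 without single libraries. In fibroblast-like cells it rose from 0 to 1 with no filter. Over all called cells it went from 2 to 4 with DESeq2, 4 with no filter, 5 with the block, 0 with at least 1000 UMIs, 0 without tumour epithelial-like cells and unnamed cluster 1, and 0 without any single library. Counts over all genes moved more. In T/NK-like cells 525 became 1708 with no filter, 1743 with the block and 57 to 1276 without single libraries. In phagocytes 16 became 100 with DESeq2, 10 with at least 1000 UMIs, 553 with no filter, 6 with the marker gate, 238 with the block and 0 to 297 without single libraries. In fibroblast-like cells 0 became 8 with DESeq2 and 205 with no filter, and in tumour epithelial-like cells 10 and 13. Over all called cells 458 became 1821 with DESeq2, 2 with at least 1000 UMIs, 2079 with no filter, 1902 with the block, 5 without tumour cells and cluster 1, and 0 to 160 without single libraries. The count of genes highest in tumour epithelial-like cells, 7, was 4 to 6 without single libraries. The causes were not tested.

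Directions turned when single libraries were left out, over these ranges of log2 fold changes: Hbegf in phagocytes -0.36 to 3.69, Erbb2 in fibroblast-like cells -0.47 to 0.0105, Nrg1 in fibroblast-like cells -1.998 to 1.40, Areg in the CD4 gate -1.74 to 0.24, Areg in the regulatory gate -1.48 to 2.48, and over all called cells Hbegf -1.95 to 0.47 and Nrg1 -1.12 to 0.52. The low value of Hbegf in phagocytes and of Areg in the regulatory gate was the one without Il1a-/- replicate 2. Without tumour epithelial-like cells and unnamed cluster 1, Erbb3, Hbegf and Tgfa over all called cells turned to 0.37, 1.79 and 1.20. Whether same-numbered libraries share a collection day is not given in the labels; their deviations from the group means correlated at 0.18 in T/NK-like cells, 0.04 in phagocytes, 0.40 in fibroblast-like cells and 0.29 over all called cells. With the block Areg in T/NK-like cells had an adjusted p of 0.018, Hbegf in phagocytes 0.031 and Areg in the regulatory gate 0.042 (edgeR). Depth was lowest in the Il1a-/- group, whose tumour epithelial-like values rest on 23 cells of 1 library.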
